A study of Mus musculus with 6 samples.

Results

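Genes of glycolysis and of the cellular response to low oxygen were examined in sorted bone marrow hematopoietic stem cells (HSCs) from wild-type mice and from mice labelled CDK19-/-, with 3 microarrays per genotype. The set holds 33 genes listed by function, from glucose uptake to lactate export and from the hypoxia-inducible factors (HIFs) to their targets. For each, the brightest cluster carrying that gene symbol alone in the platform annotation was taken, where a cluster is the set of probes that the array assigns to 1 gene or transcript. Such a cluster was found for 31 of the 33 genes, out of 30145 genes named in this way on the array. Gpi1 and Eno1 had none and were not analysed here.

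All mice were 6 to 8 weeks old, and both groups went through the same depletion of lineage-positive cells and the same flow sort for HSCs. The labels call the 3 arrays of a genotype biological replicates but do not give the number of animals per array, their sex, the gate or the deleted part of Cdk19. The p-values measure the spread between these arrays only. CDK19 is one of the kinases of Mediator, a complex that passes signals from transcription factors to RNA polymerase II, and the series asks how its loss bears on HSC proliferation through p53 and p21.

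Glycolysis splits glucose into pyruvate in the cytosol, and lactate dehydrogenase can then turn pyruvate into lactate without oxygen. HSCs live in marrow niches of low oxygen and are known for a strong reliance on glycolysis. HIF1 is a pair of HIF1A and ARNT. With oxygen, prolyl hydroxylases of the EGLN family mark HIF1A for destruction, and without it HIF1A accumulates and switches on glucose transporters, glycolytic enzymes and other targets. The series measured RNA, so the amount of HIF1A protein is not part of these data.

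In the knockout HSCs, 11 of the 29 members that were bright enough to test rose, 0 fell and 18 did not pass. A call is a Benjamini-Hochberg adjusted p under 0.05 from a limma fit over 39543 clusters. Of all tested clusters 2.96% were called higher and 4.84% lower, and of named protein-coding genes 4.7% and 5.93%. The 11 were the glucose transporter gene Slc2a1, the enzyme genes Hk1, Hk2, Pfkp and Ldha, the regulatory enzyme gene Pfkfb3, both tested HIF subunit genes Hif1a and Arnt, and the HIF targets Vegfa, Egln3 and Ddit4. The largest rise was that of Vegfa, 3.14-fold, followed by Slc2a1 with 2.26-fold and Ddit4 with 1.91-fold. The median change over the 29 tested members was 0.09 on the log2 scale, beside 0.00 over all tested clusters. By limma's unadjusted p, 4 members were lower and 14 higher at a threshold of 0.05. The share of all tested clusters at that threshold was not taken. This count and those at the same threshold below therefore stand without a background. Epas1 and Adm were below the brightness limit of 4.09 and were not tested.

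**Figure D1:**
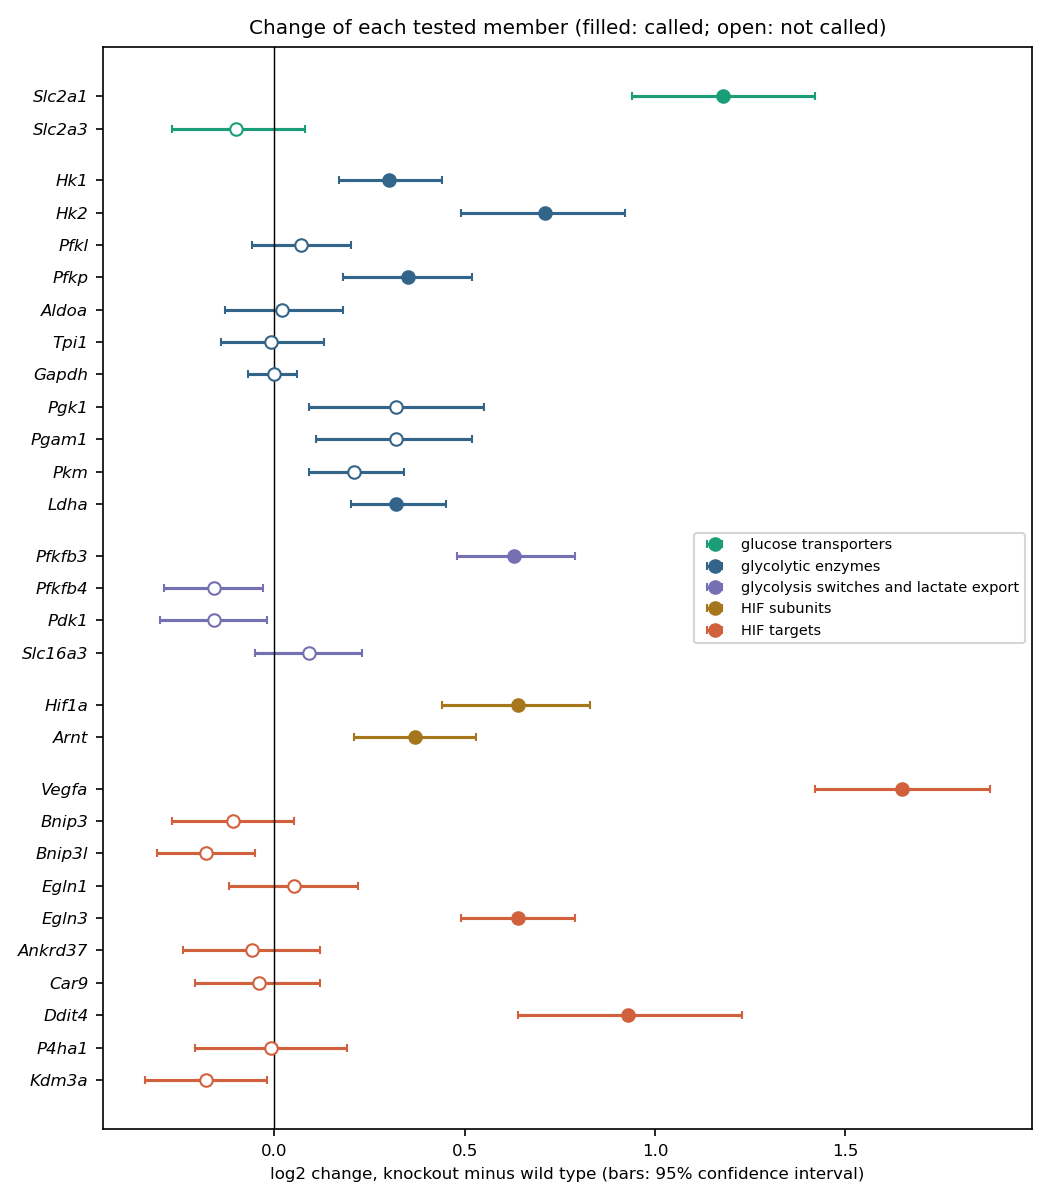
Log2 change, knockout minus wild type, of the 29 tested members, grouped by role, with 95% confidence intervals from limma; filled points passed an adjusted p of 0.05. The 11 filled points all lie to the right of zero, from 0.30 for Hk1 to 1.65 for Vegfa, and the 18 open points lie between -0.18 and 0.32.

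Several promoters of these genes hold the short core that HIF binds, ACGTG or GCGTG, and 4 are shown because they belong to members with contrasting changes: the transporter and the hexokinase gene that rose most in their roles, Ldha, and Bnip3, which did not pass. Each is the 250 bases before the RefSeq start site in build GRCm38.p6, written on the strand of the gene. Capitals mark the core on either strand, so that a match on the opposite strand reads CACGT or CACGC. The palindrome CACGTG counts as 2 overlapping matches. Slc2a1 lies at chr4:119108495-119108744 on the plus strand, Hk2 at chr6:82774455-82774704 on the minus strand, Ldha (the first of its 2 start sites in the table) at chr7:46845554-46845803 on the plus strand, and Bnip3 at chr7:138909507-138909756 on the minus strand.
Slc2a1: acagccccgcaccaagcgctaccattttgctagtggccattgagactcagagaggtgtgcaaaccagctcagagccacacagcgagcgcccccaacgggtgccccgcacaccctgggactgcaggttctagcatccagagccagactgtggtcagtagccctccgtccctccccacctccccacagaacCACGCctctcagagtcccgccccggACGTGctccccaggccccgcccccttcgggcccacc
Hk2: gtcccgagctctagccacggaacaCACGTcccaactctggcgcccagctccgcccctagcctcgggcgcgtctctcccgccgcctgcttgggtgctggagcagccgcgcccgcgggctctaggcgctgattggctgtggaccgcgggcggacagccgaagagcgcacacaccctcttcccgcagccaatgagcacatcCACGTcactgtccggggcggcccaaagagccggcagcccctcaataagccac
Ldha: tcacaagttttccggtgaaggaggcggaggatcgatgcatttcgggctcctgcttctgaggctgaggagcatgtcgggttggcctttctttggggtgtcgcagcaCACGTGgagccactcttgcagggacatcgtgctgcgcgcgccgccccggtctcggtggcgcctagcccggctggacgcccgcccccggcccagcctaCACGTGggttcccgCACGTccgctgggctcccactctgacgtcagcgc
Bnip3: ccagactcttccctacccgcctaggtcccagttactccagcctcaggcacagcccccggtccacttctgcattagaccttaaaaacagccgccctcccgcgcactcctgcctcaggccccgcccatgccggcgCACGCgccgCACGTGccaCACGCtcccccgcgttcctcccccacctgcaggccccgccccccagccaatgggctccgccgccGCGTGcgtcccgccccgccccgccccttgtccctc
The Slc2a1 and Hk2 windows have 2 matches each, with the nearest ending 32 and 48 bases before the start site. The Ldha and Bnip3 windows have 5 matches each. Among the 30 members with a window in the table, 28 (93.3%) held a match in at least 1 window, against 56.7% of 10024 tested protein-coding genes and 41.5% of all 27025 genes with a window. By window, a match was present in 33 of the 42 windows of members (78.6%) and in 38.6% of all 32851. Counting any window of a gene, it was present for 11 of 11 members that rose. The same held for 15 of the 16 tested members with a window that did not pass. Among those that rose, Vegfa and Hk1 had 0 matches in the window of their first start site and counted only through their second. In that second Vegfa window, the nearest match ended 207 bases before the start site. The window, chr17:46025164-46025413, lies downstream of the first start site on the minus strand. Whether it acts as a promoter was not tested, so the Vegfa count is uncertain. A match is a run of letters, not a measured binding site. The members were listed for glycolysis and the HIF response, so their high share is not independent of how they were chosen. Slc2a3, Epas1 and Bnip3l had no window in the table.

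Glucose enters HSCs through facilitative transporters. Slc2a1 encodes GLUT1, the main basal glucose transporter of blood cells. Its values were 10.07, 9.98 and 10.08 in the wild-type arrays and 11.30, 11.00 and 11.36 in the knockout arrays, on the deposited log2 scale. The lowest knockout array thus stood 0.92 above the highest wild-type array. The change was 1.18 (SE 0.10; limma adjusted p = 0.0017). Slc2a3, encoding the high-affinity transporter GLUT3, had values of 10.63 to 10.77 in wild type and 10.48 to 10.69 in the knockout, so the groups overlapped. Its change was -0.10, with a 95% interval from -0.27 to 0.08. Within each array, Slc2a1 minus Slc2a3 moved from -0.64 ± 0.08 (SD, n = 3) in wild type to 0.64 ± 0.20 (SD, n = 3) in the knockout, a change of 1.27. With 3 arrays against 3, an exact permutation test cannot go below a two-sided p = 0.1, which is what this pair gave (0.12 after adjustment over the 6 related gene pairs compared). Of the other pairs below, only Bnip3 with Bnip3l gave a different exact permutation p, of 0.3.

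Hexokinases add the phosphate that traps glucose in the cell. Hk2, the inducible isoform, read 8.70, 8.90 and 8.90 in wild type and 9.57, 9.41 and 9.64 in the knockout. It rose by 0.71 (SE 0.09; limma adjusted p = 0.0066), with every knockout array above every wild-type array. Hk1, the constitutive isoform, read 8.96, 9.02 and 9.01 against 9.35, 9.24 and 9.31, and rose by 0.30 (SE 0.06; limma adjusted p = 0.026). The Hk1 groups were also apart, by a smaller margin. Hk2 minus Hk1 within an array moved from -0.16 ± 0.08 (SD, n = 3) to 0.24 ± 0.08 (SD, n = 3), again at the smallest p that exact permutation allows (0.1).

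Phosphofructokinase makes the committed step of glycolysis. Pfkp, the platelet-type subunit gene, read 8.26, 8.25 and 8.35 in wild type and 8.70, 8.53 and 8.68 in the knockout, a rise of 0.35 (SE 0.07; limma adjusted p = 0.032). Pfkl, the liver-type subunit gene, read 8.99 to 9.03 in wild type against 9.10, 9.04 and 9.09. Its groups did not overlap either, but the change was 0.07 and did not pass (95% interval from -0.06 to 0.20). Pfkp minus Pfkl within an array moved from -0.72 ± 0.07 (SD, n = 3) to -0.44 ± 0.06 (SD, n = 3). PFKFB enzymes make and remove a sugar bisphosphate that strongly activates phosphofructokinase, and PFKFB3 is the isoform that mostly makes it. Pfkfb3 read 7.51, 7.52 and 7.51 in wild type and 8.22, 8.05 and 8.17 in the knockout, and rose by 0.63 (SE 0.07; limma adjusted p = 0.0032). Pfkfb4 read 6.43, 6.44 and 6.45 against 6.29, 6.29 and 6.26, a change of -0.16 that did not pass (limma adjusted p = 0.16). The within-array difference between Pfkfb3 and Pfkfb4 moved from 1.07 ± 0.01 (SD, n = 3) to 1.87 ± 0.09 (SD, n = 3).

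Among the enzyme genes after phosphofructokinase, Aldoa, Tpi1 and Gapdh had the smallest changes with the deposited values. Aldoa, encoding the aldolase that cuts the sugar into triose phosphates, had a change of 0.02 and Tpi1, the triose phosphate isomerase gene, one of -0.01, with 95% intervals from -0.13 to 0.18 and from -0.14 to 0.13. Both had overlapping groups. Gapdh, the dehydrogenase gene often used as a reference, read 17.13 in 5 arrays and 17.12 in knockout array 3. So small a range, 0.01 over the 6 arrays, was shared by 142 of the 10054 clusters with a mean above 8, where the median range was 0.34. The Gapdh change was -0.00 with the deposited values and 0.21 after quantile normalization, so its level is no firm reference here.

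Further down the pathway, 3 enzyme genes had positive changes that did not pass. Pgam1, the phosphoglycerate mutase gene, read 11.50, 11.29 and 11.30 in wild type and 11.56, 11.78 and 11.70 in the knockout, a change of 0.32 (limma adjusted p = 0.078). Pkm, encoding the pyruvate kinase of most tissues, read 12.44, 12.34 and 12.45 against 12.59, 12.60 and 12.68, a change of 0.21 (limma adjusted p = 0.063). In both genes the groups did not overlap. Pgk1, the phosphoglycerate kinase gene on chromosome X, had 2 clusters. The brighter one, used here by rule, is placed on chromosome 12 by its name, and what it reports is uncertain; its change was 0.32 (limma adjusted p = 0.11), and 0.21 without knockout array 3. The cluster on X read 11.54, 11.38 and 11.41 against 11.52, 11.61 and 11.70, with overlapping groups and a change of 0.17 (limma adjusted p = 0.23).

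Ldha, the lactate dehydrogenase subunit gene that favours lactate formation, read 11.89, 11.79 and 11.85 in wild type and 12.11, 12.19 and 12.20 in the knockout. It rose by 0.32 (SE 0.05; limma adjusted p = 0.015). Pdk1 encodes a kinase that switches off pyruvate dehydrogenase, the mitochondrial enzyme that turns pyruvate into acetyl-CoA. It read 7.68, 7.66 and 7.69 against 7.45, 7.54 and 7.55, lower in every knockout array, but the change of -0.16 did not pass (limma adjusted p = 0.17). Slc16a3, encoding the lactate exporter MCT4, had a change of 0.09 with a 95% interval from -0.05 to 0.23. Over all 11 measured glycolytic enzymes, 4 rose, 0 fell and 7 did not pass. The number that rose was 1, Hk2 alone, without wild-type array 2 or 3, 2 if knockout array 1, knockout array 3 or wild-type array 1 was dropped, and 2 once all arrays had a common median. The median change of the enzymes was 0.30, 0.24 with the mean of both Pgk1 clusters and 0.21 with the Pgk1 cluster on X.

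Among the HIF subunits, Hif1a, the oxygen-regulated subunit gene, read 10.35, 10.52 and 10.63 in wild type and 11.18, 11.08 and 11.15 in the knockout. It rose by 0.64, or 1.55-fold (SE 0.08; limma adjusted p = 0.0068). Arnt, its constant partner, read 9.44, 9.42 and 9.35 against 9.87, 9.69 and 9.77 and rose by 0.37 (SE 0.07; limma adjusted p = 0.021). In both genes all 3 knockout arrays stood above all 3 wild-type arrays. Epas1, encoding HIF2A, was dim, at 3.80 to 3.83 in wild type and 3.78 to 3.81 in the knockout, and was not tested.

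**Figure D2:**
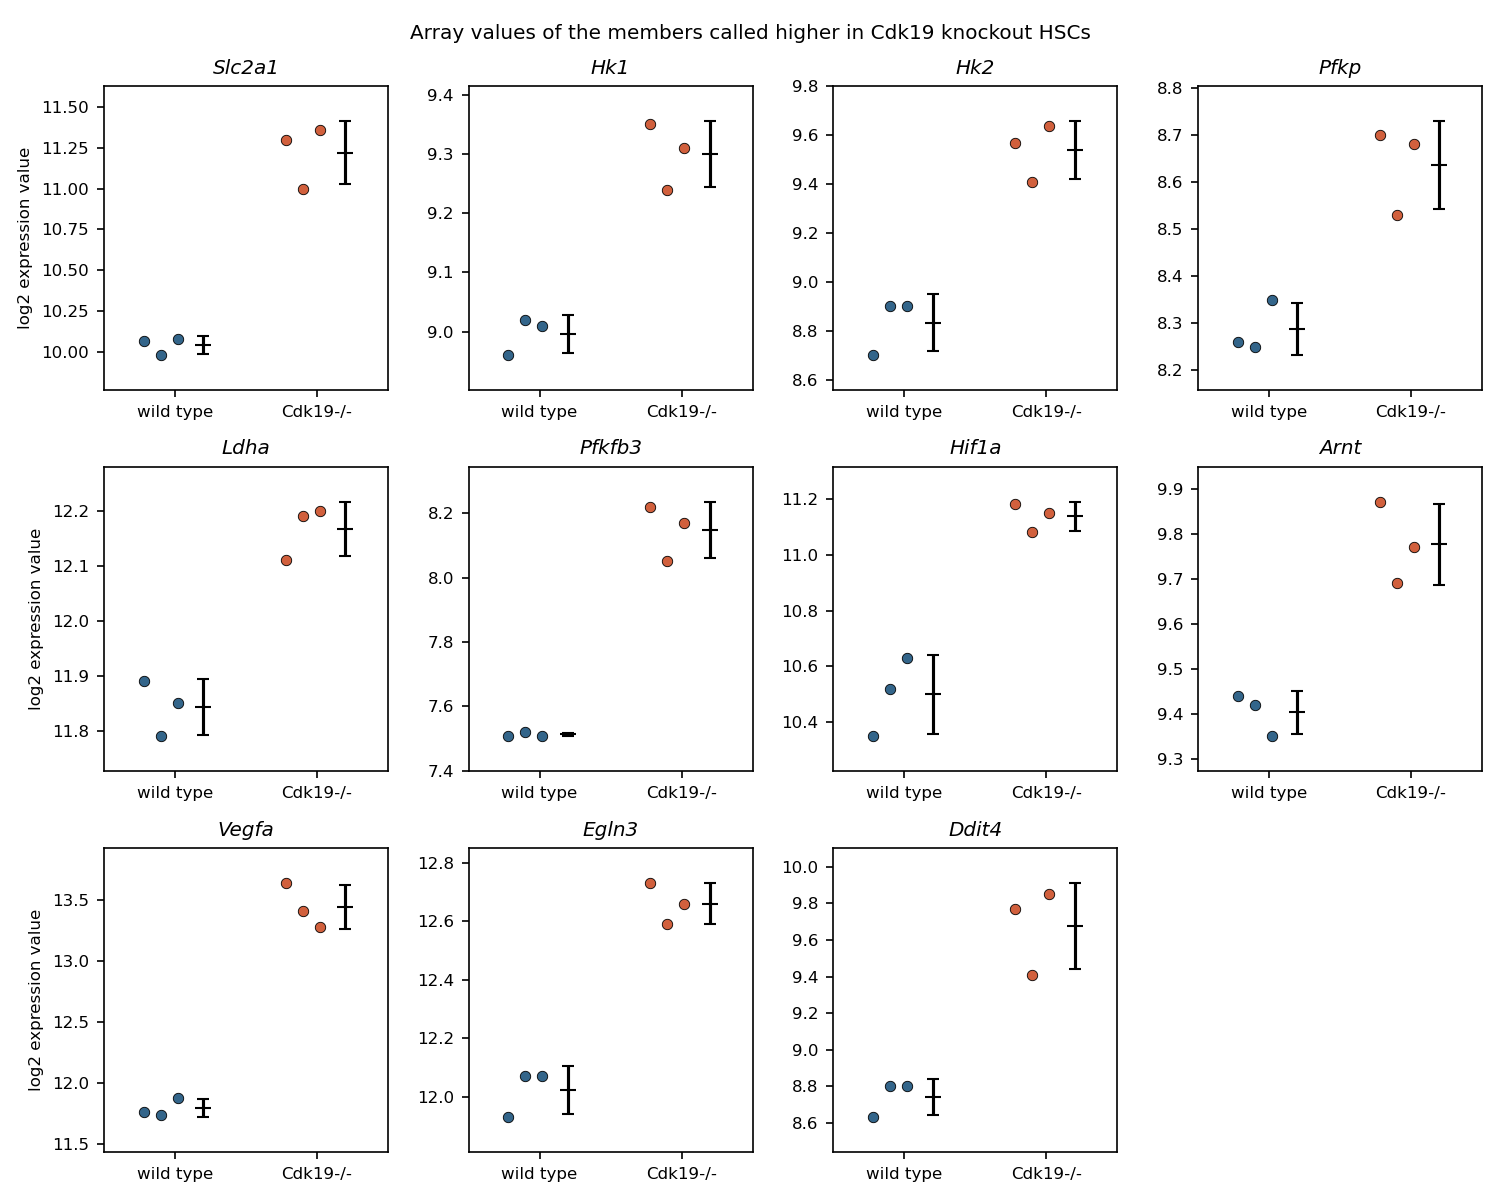
Deposited log2 values (vertical axis, scaled per gene) of the 11 members called higher, in 3 wild-type arrays (blue) and 3 Cdk19 knockout arrays (orange), with bars for the mean and SD. No wild-type point reaches the lowest knockout point in any panel; the gap is widest for Vegfa (11.88 against 13.28).

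Of 11 HIF targets, 10 were bright enough to test, of which 3 rose, 0 fell and 7 did not pass. Vegfa, the angiogenic growth factor gene, read 11.76, 11.74 and 11.88 in wild type and 13.64, 13.41 and 13.28 in the knockout. It rose by 1.65 (SE 0.10; limma adjusted p = 4.3e-04). Ddit4 encodes REDD1, an inhibitor of mTORC1 that is also induced by DNA damage and glucocorticoids. It read 8.63, 8.80 and 8.80 against 9.77, 9.41 and 9.85, a rise of 0.93 (SE 0.12; limma adjusted p = 0.0078). Egln3, encoding the HIF prolyl hydroxylase PHD3, read 11.93, 12.07 and 12.07 against 12.73, 12.59 and 12.66, a rise of 0.64 (SE 0.06; limma adjusted p = 0.0027).

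The other HIF targets had changes between -0.18 and 0.05. Egln1, encoding PHD2, the main oxygen sensor of the family, read 10.38, 10.47 and 10.38 in wild type and 10.58, 10.37 and 10.44 in the knockout, with overlapping groups and a change of 0.05 (95% interval from -0.12 to 0.22). Egln3 minus Egln1 within an array moved from 1.61 ± 0.07 (SD, n = 3) to 2.20 ± 0.04 (SD, n = 3). The mitophagy receptor gene Bnip3 had a change of -0.11, with values of 5.50 to 5.62 in wild type and 5.39 to 5.52 in the knockout. Bnip3l, its relative that clears mitochondria from maturing red cells, read 9.13, 9.10 and 9.19 against 8.97, 8.95 and 8.97. That is lower in every knockout array, but the change of -0.18 did not pass (limma adjusted p = 0.12).

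Kdm3a, a histone demethylase gene, was likewise lower in every knockout array, with 9.28, 9.33 and 9.34 in wild type against 9.24, 9.05 and 9.12, and did not pass (change -0.18; limma adjusted p = 0.18). P4ha1, the collagen prolyl hydroxylase subunit gene, had a change of -0.01, Car9, the carbonic anhydrase gene widely used as a hypoxia marker, -0.04, and Ankrd37 -0.06. The groups overlapped in all 3. Adm, encoding the vessel-dilating peptide adrenomedullin, read 3.39 to 3.71 over the 6 arrays and was not tested.

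Set side by side, the 11 glycolytic enzymes had a median change of 0.30 (0.21 with the Pgk1 cluster on X). Their range was from -0.01 to 0.71, and 9 of them were above zero. The 10 tested HIF targets had a median of -0.03 and a wider range, from -0.18 to 1.65, with 4 above zero. Beside them, 20043 of 39543 tested clusters and 6046 of 12750 named protein-coding genes were above zero. Of the 7 HIF targets that did not pass, Bnip3l and Kdm3a had 95% intervals below zero, from -0.31 to -0.05 and from -0.34 to -0.02. Groups did not overlap, with the knockout higher, in 8 of 11 enzymes (7 with the Pgk1 cluster on X) and 3 of 10 HIF targets, beside 11.6% of all tested clusters and 15.9% of named protein-coding genes. With the knockout lower, that held for 0 enzymes and 2 HIF targets, beside 14.9% and 22.2%. The 3 HIF targets that rose were called in each of the 6 fits with an array left out, and the enzymes called numbered 1 to 4 in those fits. The difference between these 2 groups of genes was not tested.

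Of the 11 calls, 7 passed in each of the 6 fits that left out 1 array: Slc2a1, Hk2, Pfkfb3, Hif1a, Vegfa, Egln3 and Ddit4. Their adjusted p-values over those fits ran from 0.0012 to 0.035. The Hk1 call was lost without wild-type array 1 (limma adjusted p = 0.094), 2 (0.089) or 3 (0.10) and without knockout array 1 (0.071) or 3 (0.069). Pfkp lost it in the same 5 fits, with values of 0.11, 0.12, 0.084, 0.088 and 0.091, and Arnt with 0.063, 0.079, 0.097, 0.052 and 0.060. Ldha lost it without wild-type array 2 or 3 (0.069 each). With arrays shifted to a common median, Hk1 (0.083), Pfkp (0.079) and Arnt (0.0502) also missed the threshold, and with no brightness filter Pfkp did (0.0502). Changes of these 4 genes stayed between 0.28 and 0.42 with 1 array left out.

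**Figure D3:**
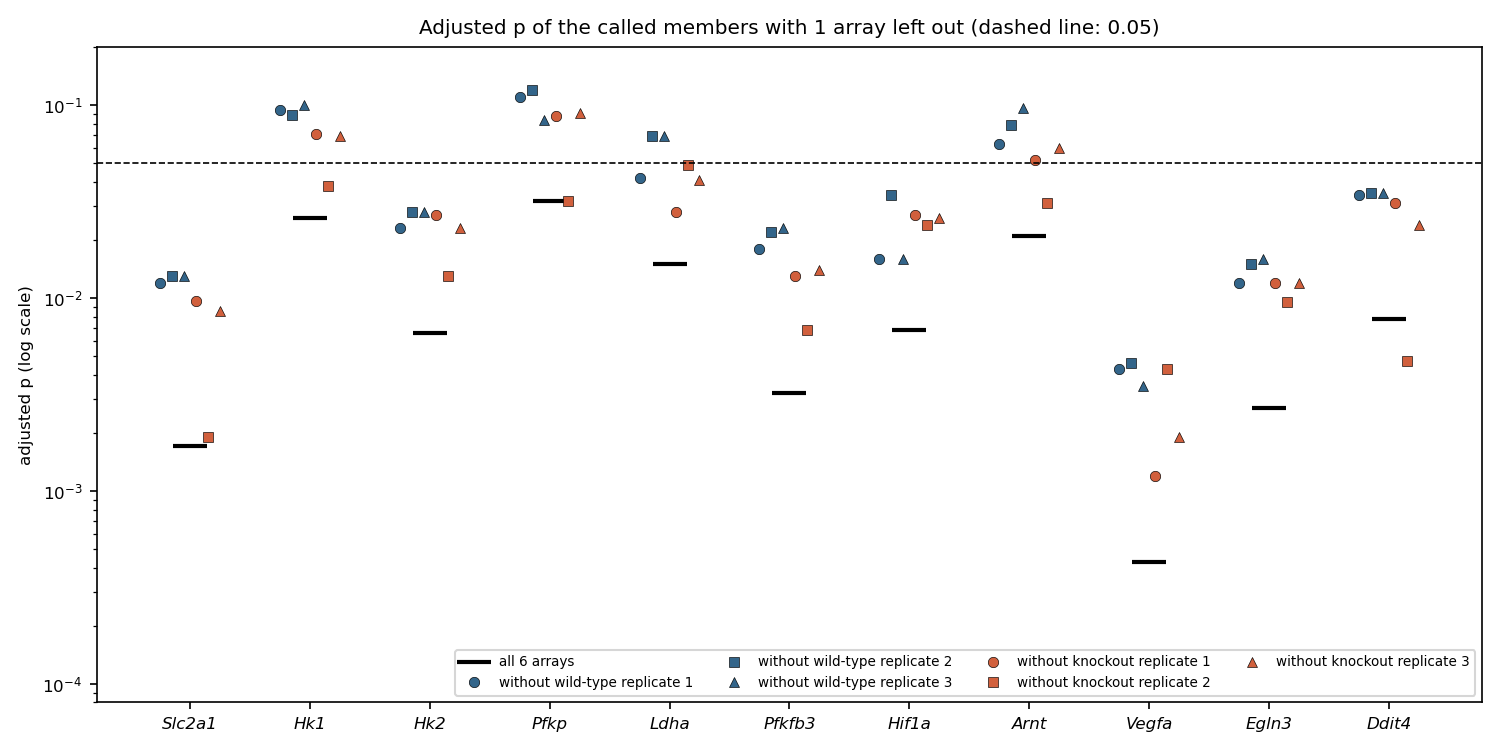
Limma adjusted p (vertical axis, log scale) of the 11 members called higher, with all 6 arrays (bars) and with 1 wild-type (blue) or 1 knockout (orange) array left out; the dashed line is the threshold of 0.05. All symbols lie below the line for 7 genes; Hk1, Pfkp and Arnt rise above it in 5 of 6 fits and Ldha in 2.

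Other genes of these pathways were taken from 6 lists made by function. Of their 108 tested genes, 8 rose and 3 fell, and the median change was -0.00. Beside them, 4.7% of named protein-coding genes were called higher and 5.93% lower. The counts of the single lists and of the marker lists below are to be read against the same shares. In the list of other glycolysis genes, 2 of 19 rose and 0 fell: Slc2a6, a lysosomal hexose transporter gene, by 0.45 (limma adjusted p = 0.011), and Gpd2, the mitochondrial glycerol phosphate dehydrogenase gene, by 0.29 (0.033). Slc2a6 lost its call without wild-type array 2 (0.051) or 3 (0.056). Gpd2 lost it in each of the 6 fits with an array left out (0.069 to 0.11). The lactate and pyruvate carrier gene Slc16a1 had a change of 0.38 and did not pass (0.080), nor did the hexokinase gene Hk3 with a change of -0.27 (0.076); both were picked with their values known. With quantile normalization Hk3 was called lower (0.046).

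No gene was called among 11 tested genes of pyruvate entry to the mitochondrion, whose changes ran from -0.19 to 0.20, or among 7 tested genes of the pentose phosphate pathway, with changes from -0.15 to 0.17. At an unadjusted p under 0.05, limma gave 2 of the first list, both higher, and 0 of the other. The first list includes the pyruvate carrier gene Mpc1, the pyruvate dehydrogenase subunit genes and the other PDK genes. The second leads from glucose phosphate to NADPH and nucleotide sugars.

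Of 19 tested HIF regulators 0 rose and 1 fell. That was Meis1, a homeobox gene known to drive Hif1a transcription in HSCs, with values of 12.12, 12.06 and 12.13 in wild type and 11.22, 11.15 and 11.36 in the knockout (change -0.86; SE 0.07; limma adjusted p = 0.0012). In all 3 knockout arrays Hif1a stood above, and Meis1 below, all wild-type arrays. A link between the changes of Meis1 and Hif1a was not tested. Vhl, encoding the ligase subunit that captures hydroxylated HIF1A, had a change of -0.10, Hif1an, the asparagine hydroxylase gene, -0.06, and the coactivator genes Ep300 and Crebbp -0.01 and 0.08. None of these 4, picked with their values known, passed.

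Among 33 tested genes of another hypoxia list, 5 rose and 0 fell. Bhlhe40, a repressor gene induced by many stimuli, rose by 2.08, Klf10, a TGF-beta response gene, by 1.24, and Cxcr4, the receptor that holds HSCs in the marrow, by 1.07, with adjusted p-values from 5.5e-05 to 0.0022 (limma). Errfi1, a feedback inhibitor of EGF receptors, rose by 0.55 (0.034), and Ndrg1, a stress gene, by 0.27 (0.047); both were picked with their values known. The Ndrg1 call was lost in all 6 fits with an array left out (0.066 to 0.16) and the Errfi1 call in 5, all but that without knockout array 1 (0.040). The list's median change was 0.02. Of the targets that did not pass, also picked with their values known, Higd1a (0.09), Ak4 (-0.03) and Mxi1 (-0.04) had small changes. Larger ones were those of Mif (0.46, limma adjusted p = 0.086), Ero1l (0.30, 0.084), Kdm4c (-0.29, 0.063) and Rsbn1 (-0.28, 0.057). Groups did not overlap in 13 of the 33 genes with the knockout higher and in 7 with it lower. Beside them stand 15.9% and 22.2% of named protein-coding genes.

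Among 19 tested drivers of glycolytic gene expression, 1 rose and 2 fell. Myc, which activates glycolytic enzyme genes in dividing cells, read 13.26, 13.32 and 13.31 in wild type and 12.23, 12.04 and 12.16 in the knockout, a change of -1.15 (SE 0.06; limma adjusted p = 2.7e-04). Txnip encodes an arrestin-domain protein that removes GLUT1 from the cell surface. It read 13.82, 13.84 and 13.96 against 12.51, 12.45 and 12.62, a change of -1.35 (SE 0.06; limma adjusted p = 2.2e-04). Every knockout array was below every wild-type array for Txnip and above it for Slc2a1. A link between the changes of Txnip and Slc2a1 was not tested. Foxo1, a transcription factor gene restrained by AKT, rose by 0.91 (limma adjusted p = 0.0014), while Mtor (-0.08), Akt1 (0.10) and the AMPK subunit gene Prkaa1 (-0.24), picked with their values known, did not pass.

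**Figure D4:**
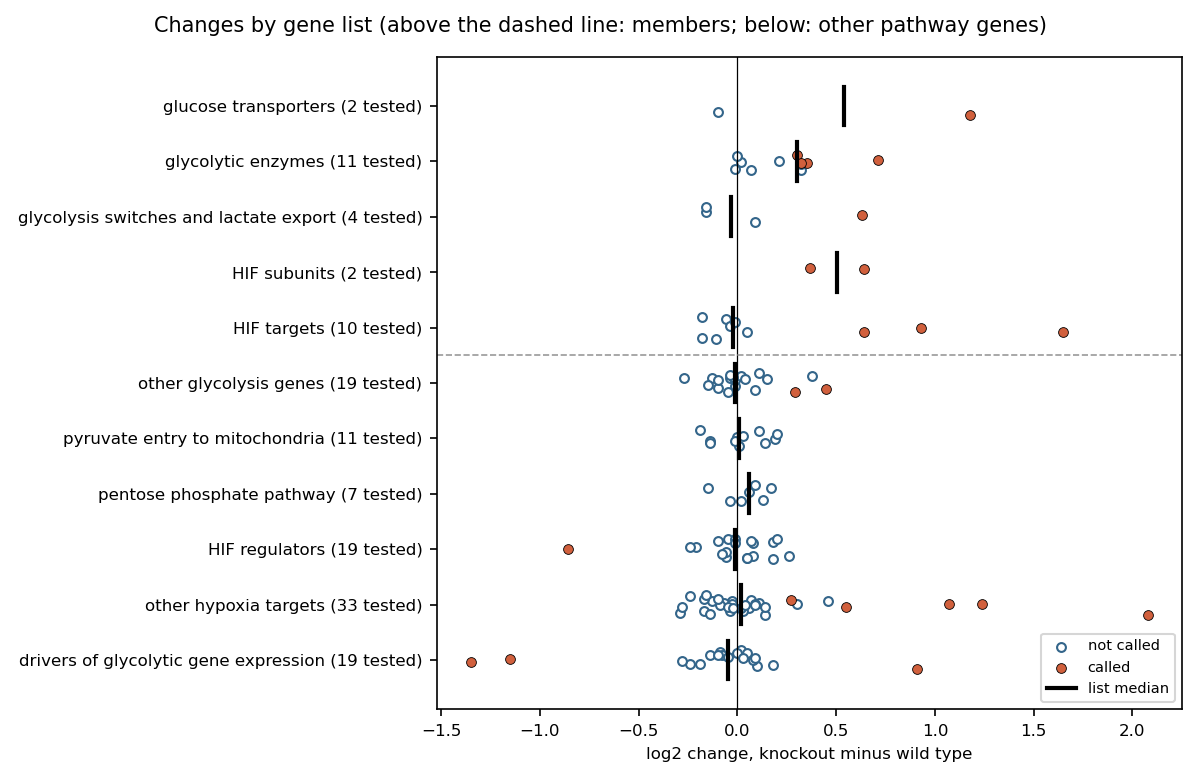
Log2 change, knockout minus wild type (horizontal axis), of each tested gene in the 5 groups of members (above the dashed line) and in 6 lists of other pathway genes (below it); orange points were called, open points were not, and black bars are list medians. The enzyme median is 0.30 (0.21 with the Pgk1 cluster on X), while the medians of the 6 other lists lie between -0.05 and 0.06.

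The knockout and the cells were checked on the same arrays. Cdk19 was lower in all 3 knockout arrays, at 11.47 ± 0.05 (SD, n = 3) against 12.44 ± 0.06 (SD, n = 3). Whether its probes lie in the deleted part is not known from the labels. Array medians lay between 4.40 and 4.48, and arrays correlated at 0.9966 to 0.9979 within a genotype and 0.9951 to 0.9957 between genotypes, across clusters, which are not independent replicates. Of 8 measured HSC and early progenitor markers all were above the brightness limit, 3 fell and 0 rose. In 6 of the 8 the groups did not overlap with the knockout lower, beside 22.2% of named protein-coding genes. Their wild-type means ran from 5.36 for Fgd5 and 5.78 for Slamf1 to 15.97 for Cd34, with Mecom at 7.24 and Procr at 7.29. Flt3 and Mpo, from the lists below, had wild-type means of 14.51 and 16.93. Passing the limit does not show how pure the sort was. The summed level of the HSC and early progenitor list, 68 to 74.1% of it Cd34, was 16.48 to 16.56 in wild type and 16.23 to 16.27 in the knockout. Of 6 tested lymphoid-primed markers 5 fell and 0 rose, and the summed level of the list (log2 of the sum of linear values) went from 14.99 to 15.01 in wild type to 14.01 to 14.09 in the knockout. Of 6 tested megakaryocyte markers 4 rose and 0 fell, and the summed level went from 10.08 to 10.15 to 10.97 to 11.04. B cell markers had 4 of 7 lower (11.87 to 11.92 against 10.88 to 11.11), with Ms4a1 below the limit. These 3 sums also leaned on 1 marker each: Flt3 (70.6 to 75.3%), F2r (56.2 to 69.1%) and Ighm (83.9 to 91.1%). Without it, the lymphoid-primed sum was 13.17 to 13.23 against 12.04 to 12.14. The megakaryocyte sum was then 8.83 to 8.92 against 9.28 to 9.41, and the B cell sum 8.43 to 8.51 against 8.16 to 8.25. Granulocyte markers had 2 of 10 higher, Ctsg and Prtn3. Their summed level (16.97 to 16.98 against 16.90 to 16.98) was 94.9 to 96.7% Mpo, and without Mpo, a sum added after seeing the data, it went from 12.05 to 12.23 to 12.38 to 12.68. Monocyte and macrophage markers had 2 of 9 higher (12.76 to 13.00 against 12.59 to 13.11). Of mast and basophil markers 1 of 5, Cpa3, was higher (12.68 to 12.81 against 13.06 to 13.12). Cpa3 made up 85.6 to 90% of that sum, and without it the groups overlapped (9.79 to 9.89 against 9.75 to 9.81). Of 5 tested T and NK cell markers limma called 0 (2 higher and 1 lower at an unadjusted p under 0.05), with Cd3e, Cd8a and Ncr1 below the limit. Their summed level, 97.1 to 97.8% of it Nkg7, went from 12.62 to 12.90 to 12.97 to 13.10. Of erythroid markers 1 of 6, Car1, was lower (10.04 to 10.12 against 9.92 to 9.94), with Slc4a1 and Epb42 below the limit. Tfrc made up 58.5 to 72.3% of that sum, which was 8.78 to 8.84 against 8.07 to 8.21 without it. Of endothelial and stromal markers 1 of 4, Pecam1, was lower (11.36 to 11.42 against 11.03 to 11.17). Cdh5, Kdr, Lepr and Cxcl12 were below the limit. Pdgfrb made up 56 to 63.2% of the endothelial and stromal sum, which was 10.15 to 10.17 against 9.65 to 9.73 without it. Fewer cells of a type and less RNA per cell cannot be told apart in sorted bulk samples, and the part of these marker shifts in the glycolysis and hypoxia values was not tested.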

How the data were processed

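Each of the 6 arrays measured total RNA of sorted HSCs, 3 per genotype. The values are the authors' log2 expression levels of 65956 clusters, as deposited. MAS5 is the only tool in the submitters' processing notes, with no role. Background correction, probe summary, normalization and log base are not named in any label or header used here; base 2 was assumed from the range of 2.04 to 19.93, so fold sizes rest on that reading. Of the clusters, 30604 carried 1 gene symbol (repeats of the same symbol joined) and 2146 carried several, which were not named.

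Clusters in the lowest 40% of 6-array means were dropped, which set a limit of 4.09. Genotype was fitted with limma 3.58.1 (R 4.3.3; empirical Bayes with intensity trend) to the other 39543, two-sided, with Benjamini-Hochberg adjustment over all of them. SEs and intervals are moderated and SDs are over 3 arrays. The fit was tested on simulated data. The named genes are the 33 members, Cdk19 and up to 3 called genes in each direction per pathway list; others are marked as picked with their values known. The members and lists were chosen with earlier results of these data known. Alternatives were quantile normalization, a common median, no or a stricter filter, the mean of a gene's clusters, no trend, a replicate block and each array left out. The labels do not say that equal replicate numbers mark paired arrays, so no pairing was assumed. Deviations of same-numbered arrays from their group means correlated at -0.138, -0.0971 and 0.0249. Deviations within 3 arrays are tied to one another, so these values cannot decide whether the arrays were paired. Promoter windows are RefSeq's, build GRCm38.p6. Python 3.11.15 with pandas 2.3.3 made the tables, and matplotlib 3.10.9 the plots.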

Additional observations from a re-analysis of the deposited data

How the results depend on the processing

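The number of members called higher was 11 with all arrays, and 7 to 11 with 1 array left out. It was 7 with the replicate number as a block (replicate block), where Arnt, Hk1, Ldha and Pfkp missed the threshold. Whether equal numbers mark paired arrays is not given in the labels. The number called higher was 8 with a common median, 10 with no filter and 11 under the other alternatives. In every fit 0 members were called lower. Over all clusters, 1172 were higher and 1914 lower, against 630 and 1083 with the replicate block, and 542 to 971 and 764 to 1508 with 1 array left out. Called genes on the pathway lists numbered 11, against 7 with the replicate block and 7 to 9 with 1 array left out, 8 with a common median and 9 with no filter. They numbered 13 with the dimmest 60% left out, where Foxo3, Kdm4c and Rsbn1 were also called lower, and 14 with quantile normalization, where Foxo3 and Hk3 were also called lower and Ero1l higher. The median change of the enzymes was 0.24 with the mean of a gene's clusters, 0.21 with the Pgk1 cluster on X (chosen after seeing the data) and 0.21 to 0.29 with 1 array left out. The number of enzymes called higher was 4, against 1 with the replicate block and 1 to 4 with 1 array left out. The median of the HIF targets was -0.06 with a common median, -0.04 with no filter and -0.03 to -0.01 with 1 array left out. Uncalled members near zero changed sign: Aldoa was at -0.01 with a common median, Gapdh at 0.21 and P4ha1 at 0.02 after quantile normalization. With 1 array left out, Aldoa ran from -0.02 to 0.06, Tpi1 from -0.03 to 0.02, Gapdh from -0.00 to 0.00, Egln1 from -0.01 to 0.10, Car9 from -0.07 to 0.01 and P4ha1 from -0.09 to 0.03. The causes were not tested. With 3 arrays per genotype, no detection calls and no scan information used here, small changes of single genes are uncertain, and a p that missed the threshold does not show that 2 groups were alike.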
